A study of Homo sapiens with 9 samples.

Results

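The genes described here build ribosomes: 48 genes for RNA polymerase I, for the small nucleolar ribonucleoproteins that modify ribosomal RNA, and for the factors that assemble the small (40S) and large (60S) subunits. They were chosen by name and function, with earlier results of these data known. Each was represented by the probe set that is assigned to that gene alone and has the highest mean over all arrays. Of the 48, 42 were measured, out of 19775 genes on the array. NOP56, DKC1 and BOP1 had only probe sets shared with other genes, and EBNA1BP2, DDX18 and GNL3 had no probe set in the annotation used. The samples are the human embryonic stem cell line WA09, with 3 arrays in each of 3 conditions. The differentiating cells spent 2 days with RA (retinoic acid, 1 µM), in medium to which no FGF was added. The damaged cells were given DOX, taken here to be doxorubicin, a topoisomerase II poison, for 5 h. The pluripotent cells received neither agent. RA cells therefore differ from pluripotent cells in FGF as well as in retinoic acid, and these 2 differences cannot be told apart.

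Values are log2 intensities from 1-colour arrays, normalised between arrays, with array medians of 4.62 to 4.68. Within a condition the correlation between arrays, taken across genes, was 0.996 to 0.998, and the third pluripotent array had the lowest weight of its group (0.512, against 1.52 and 1.59). Whether the 3 arrays per condition stand for separate cultures is not stated, so the tests compare conditions with a spread that may be only technical. Cultures on mouse feeder cells and feeder-free cultures are both described, without saying which gave each array. All 10 measured pluripotency markers lay above the median gene. Of 14 fibroblast markers, 5 (COL3A1, COL6A3, DCN, LUM and POSTN) lay below it on all 9 arrays. The summed linear level of the 14 was 4616 to 4838 in RA cells, 9732 to 10238 in DOX cells and 4711 to 4863 in pluripotent cells, with 6 of them called higher after DOX, 2 called higher and 4 lower after RA, and 1 higher and 8 lower in RA than in DOX cells. Its part in the results below was not tested.

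Ribosomes are made in the nucleolus, where RNA polymerase I transcribes one long precursor that holds the 18S, 5.8S and 28S ribosomal RNAs. While it is being transcribed, the small subunit processome folds and cleaves the part that becomes 18S RNA, box C/D particles methylate the RNA and box H/ACA particles convert uridines to pseudouridine, and separate sets of factors then mature and export each subunit. The process takes up much of a growing cell's effort, many of its genes are targets of the transcription factor MYC, and faults in it are known to stabilise p53 through free ribosomal proteins that bind MDM2. Pluripotent stem cells are known for large nucleoli and rapid growth.

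A sequence feature that the choice of genes did not use was the E-box of MYC and related factors, searched as CACGTG, which reads the same on both strands. Promoter windows of 250 bases before to 50 bases after the start of the gene (RefSeq, GRCh38.p14) were at hand for 40 of the 48 genes, and 18 of the 40 (45%) held at least 1 E-box. Over all genes with a window the share was 8.77% (2396 of 27305), and over the genes tested on the arrays 10.9% (1672 of 15384). Among the RNA polymerase I genes 0 of 6 held one, and among ribosomal protein genes 4 of 61 (6.56%). Related lists also had shares well above that of all genes, at 13 of 35 further small subunit factors (37.1%), 6 of 16 RNA polymerase III genes (37.5%) and 9 of 39 further large subunit factors (23.1%). The E-boxes are given for the 3 genes that have one and were called in a comparison, RRP9, UTP20 and NLE1, and for 6 genes that were not called, so that each role with an E-box is seen at least once. Each line holds 30 bases around the E-box on the strand of the gene, with the E-box in capitals.
RRP9, chr3:51941892-51941921, minus strand: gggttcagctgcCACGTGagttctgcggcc
UTP20, chr12:101280083-101280112, plus strand: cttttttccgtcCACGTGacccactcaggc
NLE1, chr17:35142274-35142303, minus strand: ctctttctcctcCACGTGgggacgcaggat
FBL, chr19:39846356-39846385, minus strand: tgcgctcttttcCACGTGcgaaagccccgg
GAR1, chr4:109815781-109815810, plus strand: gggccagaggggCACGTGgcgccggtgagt
DDX21, chr10:68956604-68956633, plus strand: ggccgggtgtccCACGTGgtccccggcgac
UTP4, chr16:69132621-69132650, plus strand: agagcgcgcgcgCACGTGgggccggggcgg
BYSL, chr6:41921515-41921544, plus strand: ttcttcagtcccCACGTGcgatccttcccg
PES1, chr22:30591880-30591909, minus strand: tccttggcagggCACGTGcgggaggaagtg
Of 21 E-boxes in the 18 promoters, 13 began downstream of the gene's start and 8 upstream. A match describes these letters only and is not a measured binding site.

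As a group the ribosome biogenesis genes moved little in either treatment. After DOX, 2 of the 42 measured genes were higher than in pluripotent cells (NOP58 and RRP12) and 1 was lower (NLE1). After RA none was higher and 2 were lower (TSR1 and UTP15). A gene was called at an adjusted p under 0.05, from limma with Benjamini-Hochberg adjustment over all genes. The 3 genes called after DOX are 7.14% of the 42, beside 15.3% of all genes (5.67% higher and 9.6% lower). The 2 called after RA are 4.76%, beside 6.47% of all genes (3.16% higher and 3.32% lower). All 42 lay above the median gene on all 9 arrays, and of the genes with a mean above the median level 24.6% were called after DOX and 10.4% after RA. Without the adjustment, 3 genes were higher and 5 lower after DOX, and 1 was higher and 3 lower after RA, at p under 0.05 (19% of the 42 after DOX and 9.52% after RA, against 27.1% and 17.4% of all genes). No gene was called in both treatments, which share their pluripotent arrays.

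The sizes were small as well. The log2 changes ran from −0.42 to 0.40 after RA, with a median of 0.01, and from −0.29 to 0.44 after DOX, with a median of −0.02. The medians over all genes were −0.0041 after RA and −0.0047 after DOX. None of the 42 moved by 0.5 or more in either treatment, while 3.8% of all genes did after RA and 6.71% after DOX. The 95% interval lay wholly within ±0.5 for 38 of the 42 after RA (90.5%, against 86.9% of all genes) and for 40 of the 42 after DOX (95.2%, against 79.4%). The remaining intervals were those of GNL3L and TAF1D in both treatments, and of TSR1 and UTP15 after RA. For 33 of the 42 genes the means of the 3 conditions spanned less than 0.25, as they did for 65.3% of all genes.

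**Figure D1:**
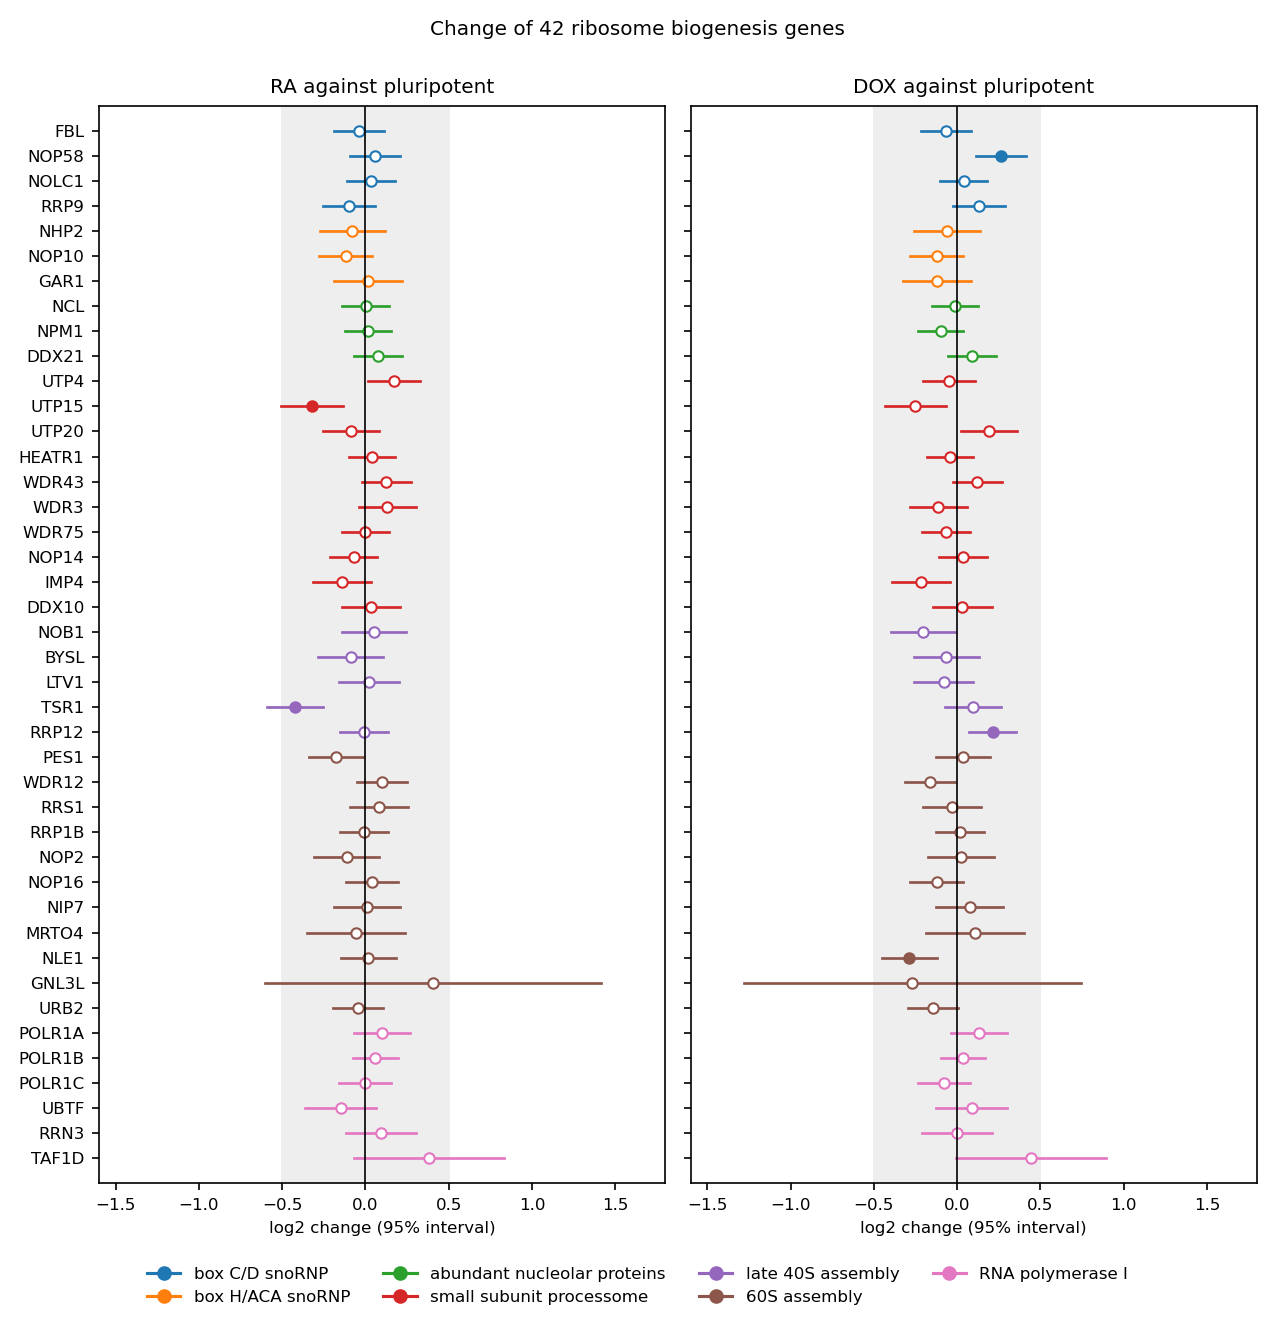
Log2 change of each of the 42 measured ribosome biogenesis genes (vertical axis, coloured by role) in RA against pluripotent cells on the left and in DOX against pluripotent cells on the right. Points are limma estimates from 3 arrays against 3 with 95% intervals, filled points were called at an adjusted p under 0.05, and the grey band marks ±0.5. All 42 estimates lie inside the band in both panels, and the long intervals belong to GNL3L and TAF1D.

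The genes were also steady between arrays of 1 condition. The median SD within a condition was 0.0746 over the 42 genes, 0.0993 over genes above the median level and 0.114 over all genes. These sets were not matched in level, with medians of 9.03 over the 42 genes and 7.98 over genes above the median level. The widest spreads were those of GNL3L, TAF1D and MRTO4, described with their roles, and UBTF (0.124), RRN3 (0.121) and GAR1 (0.118) also exceeded the median of all genes. On the third pluripotent array 13 of the 42 genes had their highest value of all arrays, while each other array held the highest value of 0 to 7 genes. The median deviation of the 42 genes on that array was 0.050 on the log2 scale, and it lay between −0.026 and 0.0032 on the other 8. Treated and pluripotent arrays did not overlap for 15 of the 42 genes after DOX (35.7%, against 28.9% of all genes and 43.5% of genes above the median level) and for 8 after RA (19%, against 22.6% and 33.7%).

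Among the box C/D proteins, NOP58 rose after DOX and the others were not called in either treatment. NOP58, a core protein of the particle that guides methylation of ribosomal RNA, read 11.47, 11.45 and 11.51 in RA cells, 11.65, 11.76 and 11.63 in DOX cells and 11.37, 11.48 and 11.41 in pluripotent cells. The DOX arrays lay above all others, and the RA and pluripotent arrays overlapped. After DOX the level was 1.20-fold that of pluripotent cells (log2 change 0.26 ± 0.07 SE, limma adjusted p = 0.0230). This call was lost without the second DOX array (adjusted p = 0.0782) or the first pluripotent array (0.0931). FBL, fibrillarin, the methyltransferase of the same particle, read 12.03, 11.99 and 11.98 in RA cells, 11.99, 11.89 and 12.02 in DOX cells and 12.01, 12.11 and 11.98 in pluripotent cells. The 3 conditions overlapped, with log2 changes of −0.04 after RA (limma adjusted p = 0.850) and −0.07 after DOX (adjusted p = 0.591). The 95% interval of the DOX change of FBL was −0.22 to 0.08. RRP9, the protein that marks the U3 particle, was called only between the treatments, and NOLC1, a chaperone of these particles, stayed between 11.26 and 11.38 on all 9 arrays. That is the chosen 1 of 3 NOLC1 probe sets. A dimmer one was lower in RA than in DOX cells (log2 difference −0.31, limma adjusted p = 0.0146) and was not called in either treatment, although its arrays did not overlap in any comparison.

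None of the 3 measured box H/ACA proteins (NHP2, NOP10 and GAR1) was called, with log2 changes of −0.12 to 0.02 after RA and −0.12 to −0.06 after DOX. In limma's test without adjustment, too, 0 of the 3 passed 0.05 in either treatment.

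The abundant nucleolar proteins kept close to their pluripotent levels. NPM1, nucleophosmin, a histone and ribosome chaperone, read 14.16, 14.21 and 14.24 in RA cells, 14.05, 14.13 and 14.08 in DOX cells and 14.22, 14.17 and 14.18 in pluripotent cells. Its DOX arrays were lower than all pluripotent arrays by a small margin. The log2 change was 0.02 after RA (limma adjusted p = 0.944) and −0.10 after DOX (adjusted p = 0.348, 95% interval −0.24 to 0.04). The chosen NPM1 probe set averaged 14.16, where the highest value on the arrays was 14.8. How far so bright a probe set can show a change was not tested. The other NPM1 probe sets, both dimmer, changed by 0.10 and 0.19 after RA and by −0.04 and 0.05 after DOX. Neither was called in any comparison, although the RA arrays of the brighter one lay above all others. NCL, nucleolin, which binds the precursor RNA, read 12.67, 12.65 and 12.65 in RA cells, 12.60, 12.70 and 12.63 in DOX cells and 12.61, 12.71 and 12.64 in pluripotent cells. The 3 conditions overlapped, and the DOX change was −0.01 with a 95% interval of −0.15 to 0.13 (limma adjusted p = 0.929). Its RA change was 0.00 (limma adjusted p = 0.995). DDX21, an RNA helicase of the nucleolus, changed by 0.08 after RA and 0.09 after DOX and was not called in either.

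Of the 10 small subunit processome genes, 1 fell after RA and none was called after DOX, where UTP15, UTP20 and IMP4 had an unadjusted p under 0.05. UTP15, a subunit that is needed for transcription of the precursor as well as for its cleavage, read 6.98, 6.79 and 6.92 in RA cells, 6.89, 6.97 and 7.04 in DOX cells and 7.18, 7.13 and 7.35 in pluripotent cells. Both treatments lay below all pluripotent arrays and overlapped each other. The RA level was 1.25-fold lower (log2 change −0.32 ± 0.08 SE, limma adjusted p = 0.0461), and the DOX change of −0.25 missed the threshold (adjusted p = 0.0690). Leaving out any 1 of the 6 arrays of the RA comparison lost the RA call, and a dim second probe set of UTP15 changed by 0.02 after RA and was not called. UTP20, a large scaffold of the processome, read 8.24, 8.15 and 8.05 in RA cells, 8.53, 8.34 and 8.40 in DOX cells and 8.24, 8.21 and 8.24 in pluripotent cells. The DOX arrays were the highest, with a log2 change of 0.19 against pluripotent cells that was not called (limma adjusted p = 0.132). UTP4, the partner of UTP15 whose gene is mutated in a North American childhood cirrhosis, read 10.52, 10.32 and 10.48 in RA cells, 10.23, 10.18 and 10.24 in DOX cells and 10.27, 10.25 and 10.28 in pluripotent cells. Its RA arrays lay above the rest, and the log2 change of 0.17 was not called (limma adjusted p = 0.241). HEATR1, WDR43, WDR75, WDR3, NOP14, IMP4 and DDX10 were not called in either treatment.

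The late 40S factors held both the gene with the lowest RA change of the 42 and the second call after DOX. TSR1, a GTPase-like protein that sits on the immature 40S particle and in yeast is known to keep initiation factors off it, read 8.76, 8.94 and 8.92 in RA cells, 9.38, 9.46 and 9.32 in DOX cells and 9.26, 9.25 and 9.37 in pluripotent cells. The RA arrays lay clearly below all others, and the DOX and pluripotent arrays overlapped. The RA level was 1.34-fold lower (log2 change −0.42 ± 0.08 SE, 95% interval −0.59 to −0.26, limma adjusted p = 0.00636). The call held whichever of the 6 compared arrays was left out, with log2 changes of −0.45 to −0.37. RRP12, known in yeast for the export of ribosomal subunits, read 7.84, 7.75 and 7.83 in RA cells, 8.06, 7.98 and 8.04 in DOX cells and 7.78, 7.82 and 7.85 in pluripotent cells. DOX arrays lay above all others, at 1.16-fold (log2 change 0.21 ± 0.06 SE, limma adjusted p = 0.0486), and this call was lost without any 1 of the 6 arrays it compares. The other 4 probe sets of RRP12, all dim, changed by −0.08 to 0.14 after DOX and were not called. NOB1, the nuclease that makes the final cut of 18S RNA, LTV1, an export adaptor, and BYSL, bystin, were not called in either treatment.

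TSR1 had 4 probe sets of its own, and they did not move together. The other s_at probe set read 7.78, 7.86 and 7.93 in RA cells, 8.36, 8.43 and 8.29 in DOX cells and 8.12, 8.19 and 8.43 in pluripotent cells. It fell after RA as the chosen one did, by 0.39 on the log2 scale (limma adjusted p = 0.0390 over all single-gene probe sets). The probe set with a plain at suffix read 6.58, 6.49 and 6.82 in RA cells, 6.37, 5.90 and 6.11 in DOX cells and 6.37, 6.27 and 6.29 in pluripotent cells. There the RA arrays lay above all others, with a change of 0.32 that was not called (limma adjusted p = 0.228), and the RA to DOX difference of 0.51 was called in the opposite direction (adjusted p = 0.0154). The x_at probe set overlapped between conditions (RA change 0.26, limma adjusted p = 0.649). Which transcripts each probe set reads was not tested, so the fall of TSR1 is a statement about 2 of its 4 probe sets.

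**Figure D2:**
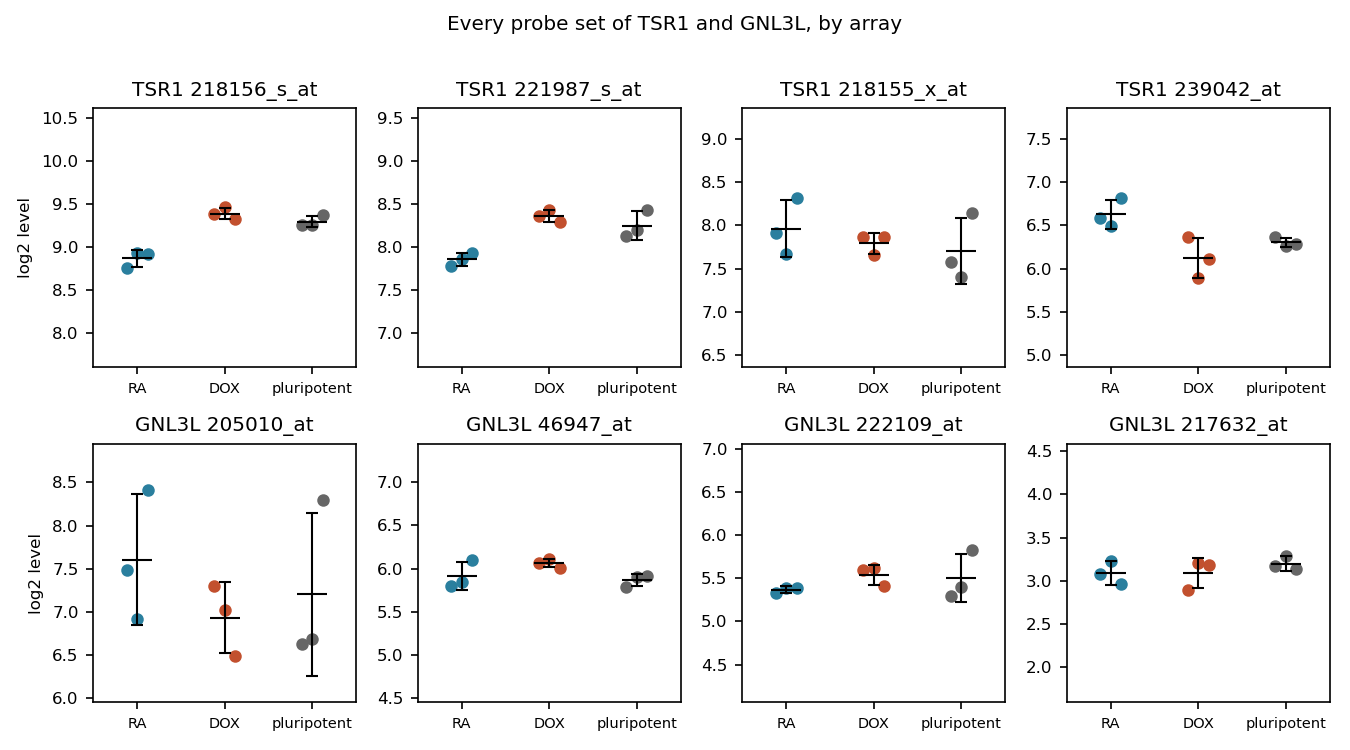
Log2 level (vertical axes, each spanning 3 units) of the 4 probe sets of TSR1 in the upper panels and the 4 of GNL3L in the lower panels, by condition. Points are single arrays and bars are the mean and SD of 3. The chosen TSR1 probe set is the leftmost, its RA arrays lie lowest there and in the next panel and highest in the rightmost panel, and the leftmost GNL3L probe set spreads widest.

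Of the 11 measured 60S assembly genes, NLE1 fell after DOX and none was called after RA, where PES1 alone had an unadjusted p under 0.05. NLE1, whose yeast counterpart is the handle by which a giant ATPase pulls on the immature 60S particle, read 7.51, 7.49 and 7.59 in RA cells, 7.32, 7.10 and 7.26 in DOX cells and 7.56, 7.47 and 7.52 in pluripotent cells. The DOX arrays lay below all others, at a level 1.22-fold lower (log2 change −0.29 ± 0.07 SE, limma adjusted p = 0.0248). The call was lost without the second DOX array, the first pluripotent array or the second pluripotent array. A dimmer probe set of NLE1 changed by 0.08 after DOX and was not called. WDR12 and PES1 are partners in a complex that is needed for processing of the spacer between 5.8S and 28S RNA. They were not called in either treatment, at −0.16 for WDR12 after DOX (limma adjusted p = 0.146) and −0.18 for PES1 after RA (adjusted p = 0.234).

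GNL3L, a nucleolar GTPase related to nucleostemin, could not be placed. Its chosen probe set read 7.48, 6.92 and 8.42 in RA cells, 7.30, 7.02 and 6.48 in DOX cells and 6.63, 6.68 and 8.29 in pluripotent cells. The conditions overlapped fully, and the third RA and the third pluripotent array stood well above the others. Its SD within a condition, 0.739, was the highest of all 19775 genes. The 95% interval of its change was −0.61 to 1.41 after RA and −1.28 to 0.74 after DOX. A second probe set of GNL3L stayed between 5.79 and 6.11 on all 9 arrays. There the DOX arrays lay above all pluripotent arrays, with a log2 change of 0.19 that was not called (limma adjusted p = 0.237). MRTO4, a factor of the 60S stalk, had an SD of 0.196, and the other 60S genes RRS1, RRP1B, NOP2, NOP16, NIP7 and URB2 were not called in either treatment.

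No RNA polymerase I gene was called in any comparison, and 1 of the 6 (UBTF) had an unadjusted p under 0.05, between RA and DOX. POLR1A, the largest subunit of the enzyme, read 6.89, 6.98 and 6.89 in RA cells, 7.08, 6.89 and 6.89 in DOX cells and 6.77, 6.89 and 6.80 in pluripotent cells. Its arrays overlapped or touched between conditions, with changes of 0.10 after RA (limma adjusted p = 0.581) and 0.13 after DOX (adjusted p = 0.304). UBTF, the factor that opens the ribosomal RNA genes, read 7.60, 7.67 and 7.48 in RA cells, 7.84, 7.73 and 7.89 in DOX cells and 7.59, 7.67 and 7.93 in pluripotent cells. The pluripotent arrays overlapped both treatments, and the log2 changes were −0.15 after RA (limma adjusted p = 0.502) and 0.09 after DOX (adjusted p = 0.618). RRN3, the factor that makes the polymerase ready to initiate, read 8.43, 8.74 and 8.64 in RA cells, 8.43, 8.65 and 8.44 in DOX cells and 8.57, 8.51 and 8.44 in pluripotent cells. The 3 conditions overlapped, and the DOX interval of RRN3 was −0.21 to 0.21 (limma adjusted p = 1), with an RA change of 0.09 (adjusted p = 0.701).

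POLR1B and POLR1C, further subunits of the enzyme, lay between 9.06 and 9.16 and between 7.85 and 8.08 on the 9 arrays. TAF1D, a subunit of the selectivity factor that binds the ribosomal RNA promoter, read 7.77, 7.56 and 7.16 in RA cells, 7.78, 7.48 and 7.41 in DOX cells and 7.44, 7.24 and 6.66 in pluripotent cells. Its conditions overlapped, and its intervals were wide, at −0.07 to 0.83 after RA (limma adjusted p = 0.384) and −0.0065 to 0.89 after DOX (adjusted p = 0.191). At an SD of 0.317 it stood at rank 150 of all genes by spread within a condition.

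More of the genes were called between RA and DOX cells than in either treatment against pluripotent cells. Of the 42 genes, 3 were higher in RA than in DOX cells (NLE1, WDR12 and WDR3) and 4 were lower (TSR1, UTP20, RRP9 and RRP12). These 7 are 16.7% of the 42, beside 21.2% of all genes (12.6% higher and 8.62% lower) and 34% of genes above the median level. The median log2 difference, RA minus DOX, was 0.0024, the range was −0.52 to 0.67, and 2 genes passed 0.5 in size (TSR1 and GNL3L, 4.76%, against 9.88% of all genes). Arrays of the 2 treatments did not overlap for 18 of the 42 genes (42.9%, against 34.8% of all genes and 52.7% of genes above the median level), 10 of them higher and 8 lower in RA cells. Without adjustment 13 of the 42 (31%, against 31.9% of all genes) had a p under 0.05. For 39 of the 42 (92.9%, against 75.4% of all genes) the 95% interval lay within ±0.5.

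By the roles used here, the 4 genes lower in RA than in DOX cells belong to the small subunit or its U3 particle. Of the 3 higher ones 2 belong to the large subunit. These groups rest on the role given to each gene, and RRP12 is known in yeast for the export of ribosomal subunits. They are also too small for more than a count. TSR1 differed by −0.52 ± 0.08 SE (limma adjusted p = 0.000631), a level 1.43-fold lower in RA cells. RRP9 read 7.25, 7.29 and 7.32 in RA cells, 7.60, 7.53 and 7.42 in DOX cells and 7.36, 7.34 and 7.46 in pluripotent cells. Its RA arrays were below all DOX arrays, with a difference of −0.23 (limma adjusted p = 0.0395). UTP20 differed by −0.27 (limma adjusted p = 0.0244) and RRP12 by −0.22 (adjusted p = 0.0318), with no overlap between the treatments for either.

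On the other side, NLE1 was 1.23-fold higher in RA than in DOX cells (log2 difference 0.30, limma adjusted p = 0.0140), with all RA arrays above all DOX arrays. WDR12 read 10.29, 10.34 and 10.36 in RA cells, 10.12, 10.09 and 9.97 in DOX cells and 10.18, 10.26 and 10.24 in pluripotent cells. Its pluripotent arrays lay between the treatments, and RA exceeded DOX 1.20-fold (0.27, limma adjusted p = 0.0169). A second WDR12 probe set differed in the same direction, by 0.64 (limma adjusted p = 0.00211 over single-gene probe sets), and the third overlapped between the treatments (−0.02, adjusted p = 0.893). WDR3, a scaffold protein of the small subunit processome, read 9.23, 9.42 and 9.27 in RA cells, 9.06, 9.10 and 9.03 in DOX cells and 9.22, 9.25 and 9.07 in pluripotent cells. Again the RA arrays lay above the DOX arrays, at 1.19-fold (0.25, limma adjusted p = 0.0443). Of the 7 calls, that of TSR1 was the only one kept whichever of the 6 compared arrays was left out.

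**Figure D3:**
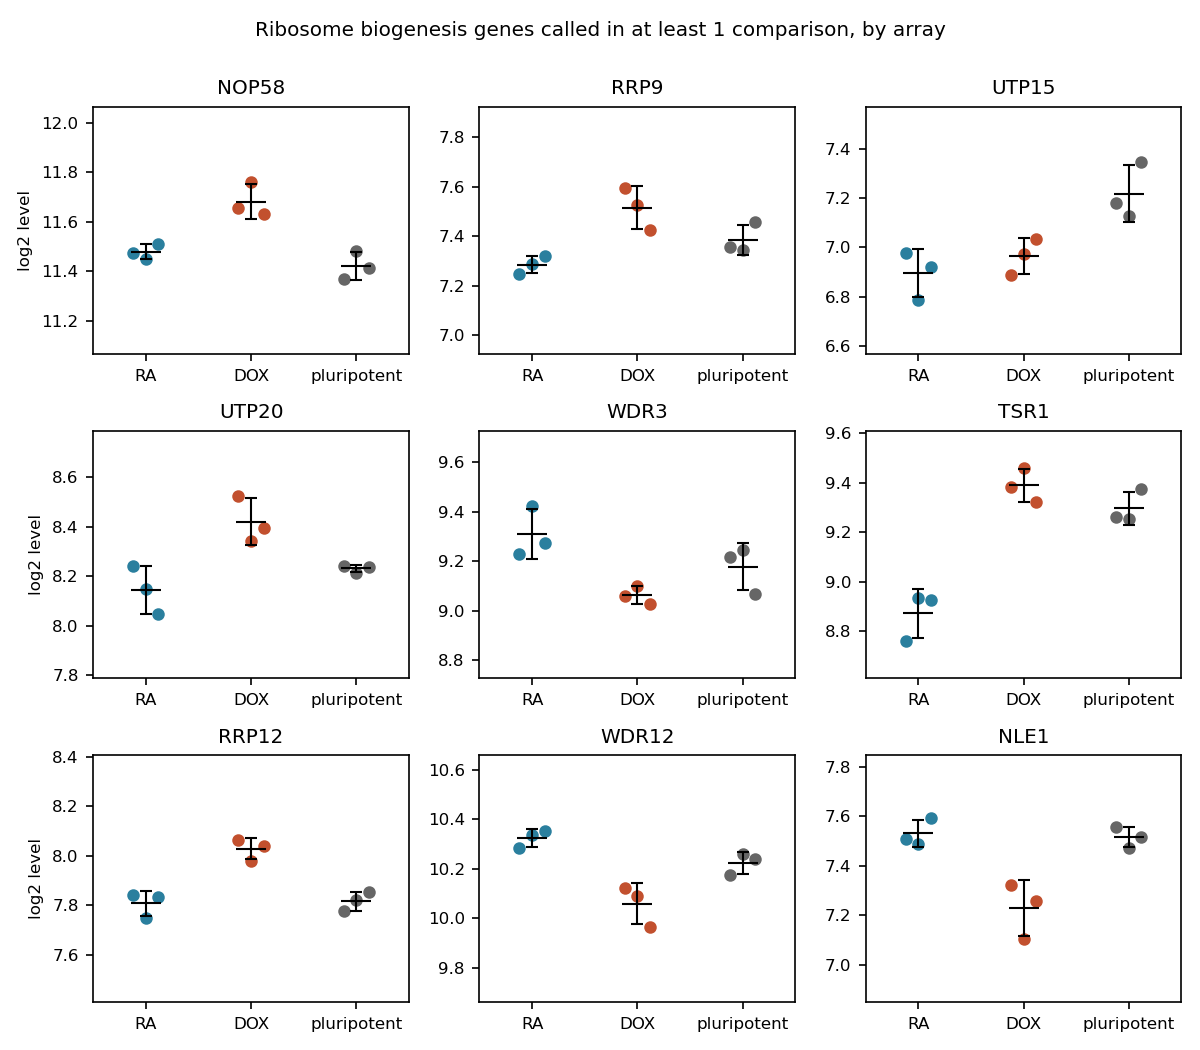
Log2 level (vertical axes, each spanning 1 unit) of the 9 ribosome biogenesis genes called in at least 1 comparison, in RA, DOX and pluripotent cells. Points are single arrays and bars are the mean and SD of 3. TSR1 is lowest in RA cells, NOP58 and RRP12 are highest in DOX cells, NLE1 is lowest in DOX cells, and UTP15 is highest in pluripotent cells.

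RNA polymerase I genes between RA and DOX cells differed by −0.03 for POLR1A (limma adjusted p = 0.827), −0.24 for UBTF (adjusted p = 0.114) and 0.09 for RRN3 (adjusted p = 0.550). FBL differed by 0.03 (limma adjusted p = 0.826), NCL by 0.01 (adjusted p = 0.909) and NPM1 by 0.12 (adjusted p = 0.239).

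Other genes of the same pathway gave the wider picture. Of 14 further RNA polymerase I genes, 1 was higher and 2 were lower after DOX, and none was called after RA. The DOX share was 21.4%, beside 15.3% of all genes and 24.6% of genes above the median level. Between RA and DOX 4 were higher and 1 was lower (35.7%, beside 21.2% and 34%). TAF1A, another subunit of the selectivity factor, changed by −0.36 after DOX (limma adjusted p = 0.0483) and was 0.67 higher in RA than in DOX cells (adjusted p = 0.00133). POLR1D, a subunit shared with RNA polymerase III, changed by −0.22 after DOX (limma adjusted p = 0.0451). The gene that rose, CAVIN1 (0.93 ± 0.09 SE, limma adjusted p = 4.92e-05), is also a coat protein of caveolae. Of 40 further small subunit genes, 3 rose and 2 fell after DOX and 2 fell after RA (12.5% and 5%, beside 15.3% and 6.47% of all genes). Between RA and DOX 3 were higher and 7 lower (25%, beside 21.2% of all genes). NOL11, a processome subunit, fell in both treatments, by 0.32 on the log2 scale after RA (limma adjusted p = 0.0104) and by 0.45 after DOX (adjusted p = 0.000705). RRP36, needed for early cleavage, fell by 0.45 after RA (limma adjusted p = 0.0238), and KRR1, a processome protein, rose by 0.44 after DOX (adjusted p = 0.00735). Of 42 further large subunit genes, 2 fell after DOX (4.76%), among them CEBPZ at −0.41 (limma adjusted p = 0.00406), and none was called after RA. Between RA and DOX 4 were higher and 4 lower (19%). Of 13 exosome genes, whose products trim the precursor, EXOSC8 alone was called after DOX, at −0.25 (limma adjusted p = 0.0472), and none after RA. That is 7.69% of the list after DOX, and between RA and DOX 1 was higher (7.69%).

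RNA polymerase III makes 5S and transfer RNA. Of its 21 genes 2 fell after RA and 5 after DOX, and none rose (9.52% and 23.8%, beside 6.47% and 15.3% of all genes). Between RA and DOX 3 were higher and 1 was lower (19%, beside 21.2% of all genes). Of genes above the median level, 10.4% were called after RA, 24.6% after DOX and 34% between RA and DOX. POLR3G, a subunit known to mark pluripotent cells, read 8.78, 8.71 and 9.06 in RA cells, 9.12, 9.02 and 8.95 in DOX cells and 9.65, 9.72 and 9.77 in pluripotent cells. All treated arrays lay below all pluripotent arrays, by −0.87 after RA (limma adjusted p = 0.000235) and −0.69 after DOX (adjusted p = 0.000711). MAF1, the repressor of RNA polymerase III, fell as well, by 0.29 after RA (limma adjusted p = 0.0402) and 0.34 after DOX (adjusted p = 0.00952).

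Ribosomal protein genes showed no call. Of 51 measured genes 0 were called in each of the 3 comparisons by limma, and 0 had an unadjusted p under 0.05. Their changes ran from −0.08 to 0.09 after RA and from −0.12 to 0.21 after DOX, and all 51 intervals lay within ±0.5 in each comparison. Of the 51 changes, 30 were positive after RA, 38 were negative after DOX and 45 were positive between RA and DOX. RA and DOX arrays did not overlap for 16 genes, all higher in RA cells (31.4%, against 34.8% of all genes). Their median level was 13.9, where the highest value on the arrays was 14.8. How far such bright probe sets can show a change was not tested. Of 6 measured host genes of small nucleolar RNAs, 2 rose after RA, EPB41L4A-AS1 by 0.46 (limma adjusted p = 0.0019) and SNHG32 by 0.34 (adjusted p = 0.0343), and SNHG4 fell by 0.45 after DOX (adjusted p = 0.00928). These are 33.3% of the 6 after RA and 16.7% after DOX, beside 6.47% and 15.3% of all genes.

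**Figure D4:**
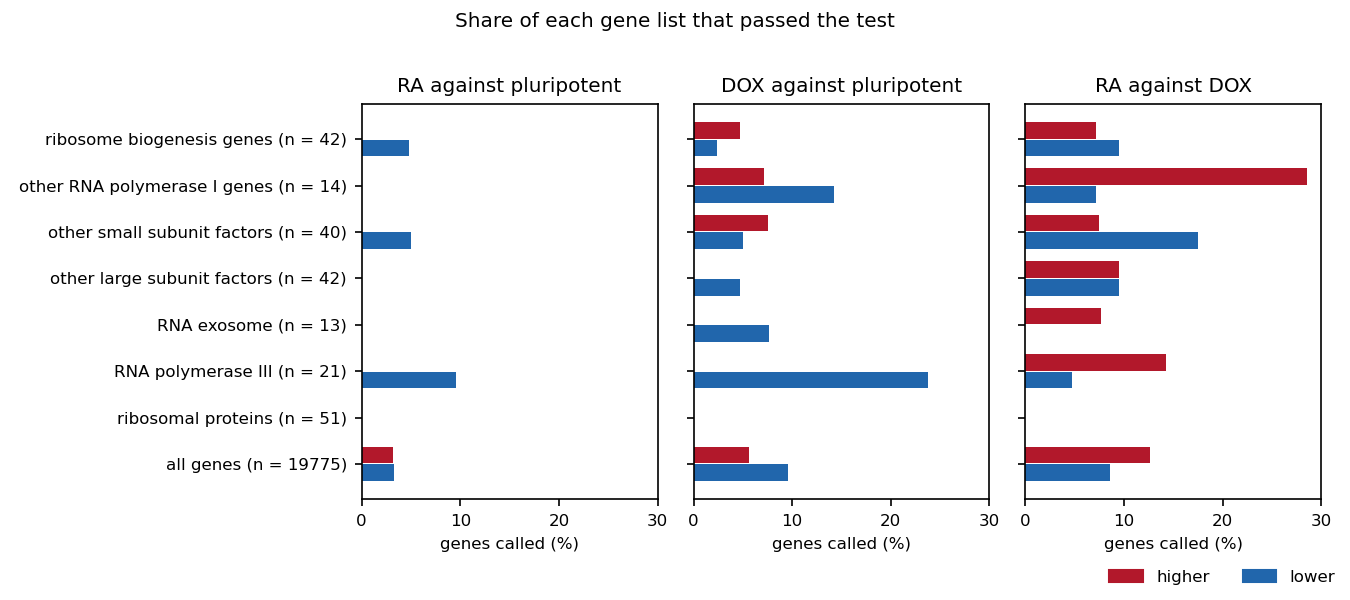
Percent of the measured genes (horizontal axis) of each list (rows down the page) called higher (red) or lower (blue) by limma at an adjusted p under 0.05, in RA against pluripotent, DOX against pluripotent and RA against DOX cells. Higher and lower calls together were 4.76% of the ribosome biogenesis genes after RA, 7.14% after DOX and 16.7% between RA and DOX. All 19775 genes gave 6.47%, 15.3% and 21.2%. The blue bar of the ribosome biogenesis genes exceeds that of all genes after RA (4.76% against 3.32%). It also does between RA and DOX (4 of 42 against 8.62%). The ribosomal protein genes are at 0.

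MYC itself went opposite ways in the treatments. It read 7.44, 7.81 and 7.42 in RA cells, 9.09, 9.32 and 9.17 in DOX cells and 8.44, 8.60 and 8.54 in pluripotent cells, with no overlap, so it fell after RA (−0.96 ± 0.11 SE, limma adjusted p = 0.000277) and rose after DOX (0.67 ± 0.11 SE, adjusted p = 0.00186). MYCN, its relative in stem cells, rose after RA (0.66, limma adjusted p = 0.000392) and was not called after DOX (−0.13, adjusted p = 0.320). Whether MYC or MYCN had a part in the changes of the ribosome biogenesis genes was not tested. The 16 measured genes of that set with a CACGTG box had median changes of −0.06 after RA and −0.01 after DOX. The 20 with a window and no E-box had 0.035 and −0.05. After RA 0 of the 16 and 2 of the 20 were called, and after DOX 1 of the 16 (NLE1) and 0 of the 20. NOP58 and RRP12, the genes called higher after DOX, had no promoter window and are in neither group. CDKN1A and MDM2, targets of p53, rose by 0.92 and 0.42 after RA (limma adjusted p = 0.000627 and 0.0157) and by 3.71 and 2.02 after DOX (adjusted p = 1.55e-08 and 1.48e-07), on the same arrays.

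The arrays also carry control probe sets for 18S and 28S ribosomal RNA. Labelling by the standard method primes from poly(A) tails, which mature ribosomal RNA lacks, so these probe sets do not measure how much ribosomal RNA was made. The 18S 3′ probe set read 9.86, 9.86 and 9.50 in RA cells, 10.27, 10.39 and 10.30 in DOX cells and 9.43, 10.02 and 8.98 in pluripotent cells. DOX arrays lay above all others there. For this probe set and for the 5′ and middle ones of 28S, DOX exceeded pluripotent by 0.84, 0.71 and 0.79 on the log2 scale (two-sided exact permutation p = 0.1 each, the smallest that 3 against 3 arrays allow, and 0.225 after Benjamini-Hochberg adjustment over 18 tests). The 18S 5′ and middle probe sets differed by 0.16 and 0.15 with overlapping arrays (exact permutation p = 0.8 and 0.6), and the 28S 3′ probe set by 0.0043 (exact permutation p = 1). RA and pluripotent arrays gave no exact permutation p below 0.2. Between RA and DOX cells 5 of the 6 probe sets were lower in RA cells without overlap, by −0.66 to −0.25 (exact permutation p = 0.1 each, 0.225 after adjustment), and the 28S 3′ probe set differed by −0.02 (exact permutation p = 0.8). The part of these shifts in the DOX results and in the differences between RA and DOX was not tested.

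**Figure D5:**
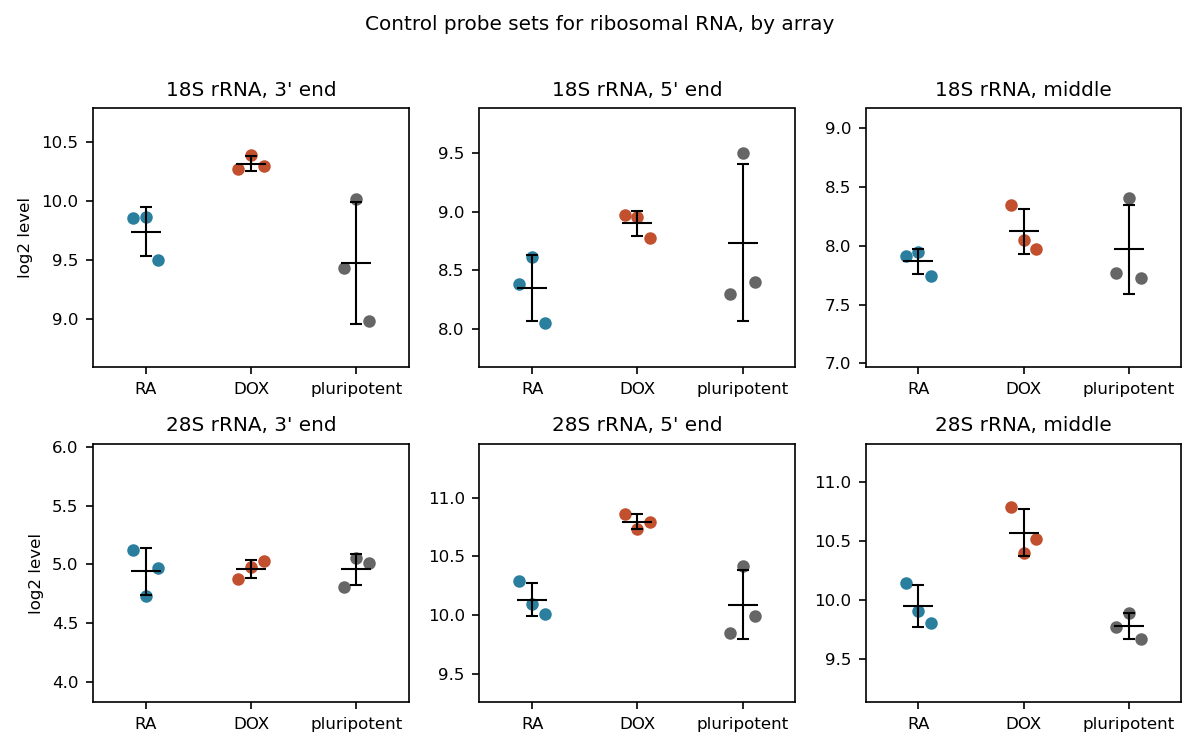
Log2 level (vertical axes) of 6 control probe sets for 18S and 28S ribosomal RNA in RA, DOX and pluripotent cells. Points are single arrays and bars are the mean and SD of 3. DOX arrays lie above all pluripotent arrays for the 18S 3′, 28S 5′ and 28S middle probe sets and overlap them for the other 3.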

How the data were processed

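Expression was measured on 9 Affymetrix arrays of WA09 cells. Per the submitters' processing notes, the authors made the deposited log2 values with RMA and affy, in versions not given here. That the scale is log2 was read from the values. RMA equalises the distribution of each array, so a shift shared by most genes is removed, and it compresses changes of dim probe sets. Of 54675 probe sets, 41091 were assigned to 1 gene, 1801 to several and 11721 to none, and 62 were controls. For each of 19775 genes the probe set of highest average level was used. limma 3.58.1 (R 4.3.3) was fitted to all 9 arrays with 3 groups, no block and no filter on low values. p-values were Benjamini-Hochberg adjusted over all genes, with 6 residual degrees of freedom, and the number of arrays limits the precision. The fit was tested on simulated data. The genes and lists were chosen with earlier results of these data known. Full statistics are given for called genes and for POLR1A, UBTF, RRN3, FBL, NCL and NPM1, and other lists are represented by up to 4 called genes of largest change, with MYC, MYCN, MDM2 and CDKN1A. Alternatives were other choices of probe set, a level filter, a trended and robust spread, pairwise fits, further quantile normalization, centring, array weights, the replicate number as a block and leaving out each array. Same-numbered arrays of different conditions deviated together by correlations of −0.103 to 0.199, with 4 of 9 over 0.1. Differently numbered arrays gave −0.247 to 0.133, with 2 of 18 over 0.1. The labels state no shared batch, so the main fit did not pair arrays and the block was kept as an alternative.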

Additional observations from a re-analysis of the deposited data

How the results depend on the processing

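The share of ribosome biogenesis genes called stayed below that of all genes under all 16 settings for DOX and for RA, and under 15 of 16 for RA against DOX, where a trended and robust spread gave 28.6% against 23.7%. All these settings use the same 9 arrays or a part of them, so they are not separate evidence. After RA the share rested on 0 to 2 calls and was near that of all genes in the main fit (4.76% against 6.47%). The counts themselves are small and moved. Of 12 called gene results, 0 kept their call under every alternative. After DOX, 2 genes were higher, but 1 with the mean of all probe sets, 1 without x_at and s_at probe sets, 1 with each probe set tested alone, 0 with only the compared groups, and 0 to 1 without 1 array. The 1 lower gene became 0 with the mean of all probe sets, without x_at and s_at probe sets, with further quantile normalization or with only the compared groups, 3 among genes above the median level, 2 with a trended and robust spread, and 0 to 1 without 1 array. The higher count was 0 without the second DOX or first pluripotent array, and the lower count was 0 without these or the second pluripotent array. The median DOX change of −0.02 became 0.019 without x_at and s_at probe sets, 0.032 with each probe set alone, 0.0036 after centring, and −0.038 to 0.015 without 1 array. After RA, the 2 lower genes became 0 with the mean of all probe sets or without x_at and s_at probe sets, 1 with quantile normalization, centring or only the compared groups, and 1 without any 1 array, while the higher count was 0 throughout and the median −0.0098 to 0.024 without 1 array. Between RA and DOX, the 3 higher genes became 1 with the mean of all probe sets, 5 above the median level, 6 with a trended and robust spread, and 0 to 4 without 1 array (0 without the third RA array, 1 without the third DOX array). The 4 lower genes became 1 without x_at and s_at probe sets, 2 with only the compared groups, 6 above the median level or with a trended and robust spread, and 1 to 3 without 1 array (1 without the first DOX array or the second or the third RA array, 2 without the first RA array). The median difference was −0.023 after centring and −0.0032 to 0.028 without 1 array.

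Without x_at and s_at probe sets 4 results changed direction, because another probe set stands for the gene. NLE1 was at 0.083 after DOX (limma adjusted p = 0.673) and at −0.12 between RA and DOX (adjusted p = 0.487), and TSR1 was at 0.32 after RA (adjusted p = 0.194) and at 0.51 between RA and DOX (adjusted p = 0.0119). With the mean of all probe sets TSR1 lost both calls (limma adjusted p = 0.849 after RA and 0.592 between RA and DOX). NPM1 was called after DOX (adjusted p = 0.0434) and between RA and DOX (0.0156) with a trended and robust spread. For changes not shown here the cause was not tested.

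With the replicate block, 2 genes were higher and 1 was lower after DOX, 0 higher and 2 lower after RA, and 3 higher and 3 lower between RA and DOX. RRP12 after DOX (limma adjusted p = 0.0654) and RRP9 between RA and DOX (adjusted p = 0.0643) lost their calls under that block, and TAF1D, not called otherwise after DOX, gained one there (0.44, adjusted p = 0.0170).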
